A study of Homo sapiens with 24 samples.

Results

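The dual-specificity MAP kinase phosphatases are a family of enzymes that switch MAP kinases off, and the transcript levels of their genes were followed here in A549 cells exposed to dexamethasone (dex). The family was taken as 10 named genes, DUSP1, DUSP2, DUSP4, DUSP5, DUSP6, DUSP7, DUSP8, DUSP10, DUSP14 and DUSP16. The counts of all transcripts of a gene were summed, with symbols taken from GENCODE by transcript identifier without version. Of these 10 genes, 9 had rows among the 42072 features of the table (33127 genes and 8945 transcripts without a gene match). DUSP14 matched no row and was not analysed here, and DUSP2 was too low to be tested, so 8 genes were tested. They were among 19897 tested features, of which 15337 were genes and the rest transcripts without a gene match.

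MAP kinases (the ERK, JNK and p38 families) are active only while both a threonine and a tyrosine in their activation loop carry a phosphate. The dual-specificity phosphatases remove both phosphates, and many of their genes are themselves switched on by the kinases they silence, which closes a negative feedback loop. DUSP1, DUSP2, DUSP4 and DUSP5 encode nuclear enzymes, of which DUSP5 is selective for ERK. DUSP6 and DUSP7 encode cytoplasmic enzymes selective for ERK. DUSP8, DUSP10 and DUSP16 encode enzymes that prefer JNK and p38. DUSP1 is a textbook target of the glucocorticoid receptor (GR) and is known for its part in the anti-inflammatory action of glucocorticoids.

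A549, an established line, stems from a human lung adenocarcinoma, and dex is a synthetic glucocorticoid. Cells in F-12K medium with fetal bovine serum received 100 nM dex in ethanol, or ethanol alone (EtOH, 0.02% of the volume of the medium), and their poly-A RNA was read by sequencing 1, 3, 5, 7, 9 and 11 h later. There were 2 libraries per treatment and time point, labelled as biological replicates, and thus 24 libraries in 12 groups. The labels do not say whether replicates came from separate cultures, so p-values measure only the spread between these samples. The duration in the labels was used, although their treatment text names 1 h for every library, and the methods of the study state triplicates where 2 replicates were labelled.

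Libraries held between 6708864 and 13748598 counts. The biological coefficient of variation between replicates lay between 6.48% at 7 h and 12.7% at 11 h. Of the 8 markers of epithelial cells and A549, ALDH1A1, KRT8, KRT18, AKR1B10 and AKR1C1 had median levels of 498 to 16400 CPM, while CDH1 (35.6), KRT19 (13.5) and EPCAM (8.33) were low, and those of alveolar type 2 cells were near 0 (SFTPC at most 1 count, NKX2-1 at most 2 and SFTPB at most 7). Among the leukocyte markers, CD3E was at 0 throughout, PTPRC reached at most 3 counts, and CD68 held 20 to 67 counts. The summed leukocyte markers ranged from 3.23 to 5.88 normalized CPM with EtOH and from 2.64 to 6.15 with dex. The 2 endothelial markers with rows summed to at most 1.06 normalized CPM, with VWF at 0 or 1 count. The 3 fibroblast markers summed to 11.3 to 20.6 with EtOH and 5.83 to 23.9 with dex, most of it COL1A1. As a check of the treatment, the GR targets TSC22D3, PER1 and KLF9 were higher with dex at all 6 time points. FKBP5, another such target, had a log2 fold change of 0.52 at 1 h that was not called and of 3.37 to 4.15 later.

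With the vehicle alone, the members of the family differed widely in level. Levels are given as RPKM (reads per kilobase of transcript, scaled to library size), a scale that allows for transcript length. For the most counted transcripts of DUSP4, DUSP8 and DUSP16, the length was that of another version than the one counted. DUSP1 had a median of 104 over the 12 EtOH libraries (85.9 to 115). DUSP4 followed with 32.1 (29.2 to 34.7), DUSP5 with 24.1 (17.3 to 31.4) and DUSP16 with 12.4 (9.39 to 14.6). The ranges of DUSP4 and DUSP5 overlapped, but within each EtOH library DUSP4 was the higher of the pair. Next came DUSP6 at 2.06 (1.05 to 2.47) and DUSP7 at 2.00 (1.5 to 2.61), which could not be put in order. DUSP10 at 0.468 (0.296 to 0.739) and DUSP8 at 0.26 (0.112 to 0.512) also overlapped. DUSP2, the phosphatase best known from activated lymphocytes, held 0 to 2 counts per library and 12 counts in all 24. Every library was thus below the 3 counts that a count of 0 allows (0.218 to 0.447 CPM, counting error only), and no fold is given for it.

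**Figure D1:**
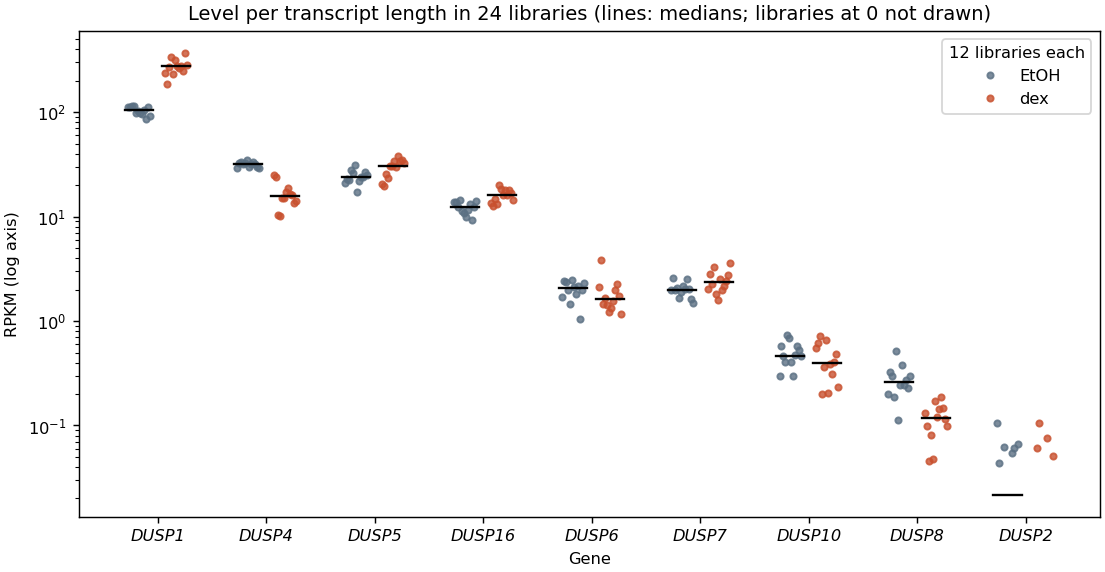
Level of each phosphatase gene in RPKM (log axis), with 1 point for each of 12 EtOH and 12 dex libraries and a line at the median. DUSP1 stood highest under both treatments, and the dex points of DUSP1 and DUSP4 lay apart from their EtOH points in opposite directions.

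Dex moved members of the family in opposite directions. DUSP1 rose by up to 3.28-fold and DUSP4 fell by up to 3.17-fold, DUSP5 and DUSP16 rose by a smaller amount and later, and calls on DUSP6, DUSP7 and DUSP8 were isolated. Each time point was tested by itself, 2 dex against 2 EtOH libraries, with the edgeR quasi-likelihood F-test and Benjamini-Hochberg adjustment over all 19897 features, and an adjusted p of at most 0.1 was called. At 1 h, 1 of the 8 tested members was called (DUSP1, higher), where 0.864% of all features were called. At 3 h, 3 were called against 12.9% of all features, DUSP1 higher as were 7.66% of all features, and DUSP4 and DUSP8 lower as were 5.29%. DUSP8 passed the filter on low counts only through its EtOH libraries, where it is higher, so its call is given as a description. At 5 h, 4 were called against 23.1%, DUSP1 and DUSP16 higher (11.2% of all features) and DUSP4 and DUSP6 lower (11.9%). The same number was called at 7 h, where 25.8% of all features were called (13.4% higher and 12.4% lower), and at 9 h, where 18.2% were (9.79% higher and 8.42% lower). At both of these times DUSP1, DUSP5 and DUSP16 were higher and DUSP4 was lower. At 11 h, 3 members were called against 8.58%, DUSP1 and DUSP7 higher (5.31% of all features) and DUSP4 lower (3.27%). Across the time course, 6 of the 7 members other than DUSP8 were called at 1 or more time points, against 41.5% of all features, and 4 at 2 or more, against 22.4%. Of these 6, DUSP6 and DUSP7 rest on 1 call each. The shares of all features include transcripts without a gene match, and features that passed the filter through 1 group only were not removed from them. In bulk RNA, fewer cells that express a gene and less RNA per cell cannot be told apart.

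**Figure D2:**
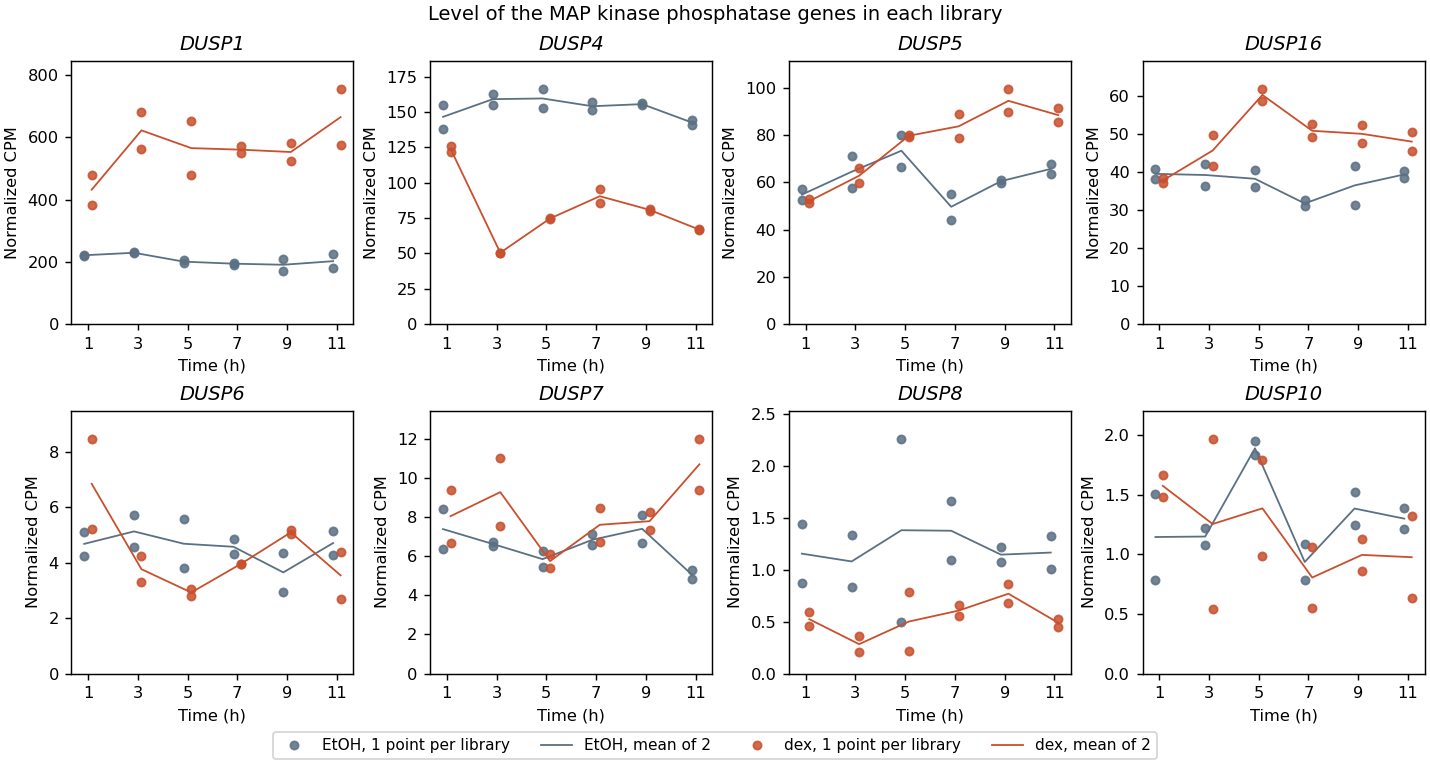
Level of the 8 tested genes in TMM-normalized CPM (y axis from 0) against time in hours, with 1 point per library and lines through the means of 2 libraries. The dex libraries lay above the EtOH libraries at every time for DUSP1 and below them at every time for DUSP4, while DUSP5 and DUSP16 separated from 7 h and from 5 h on.

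DUSP1 (ENSG00000120129.5, chromosome 5 of GRCh38 from 172768090 to 172771195, minus strand) was higher with dex at every time point. In normalized CPM the 2 EtOH libraries read 220 and 222 at 1 h, 231 and 227 at 3 h, 196 and 205 at 5 h, 197 and 191 at 7 h, 209 and 172 at 9 h, and 224 and 180 at 11 h. The dex libraries read 480 and 383 at 1 h, 563 and 681 at 3 h, 478 and 652 at 5 h, 581 and 524 at 9 h, and 754 and 575 at 11 h, with a mean of 560 ± 16.1 (SD, n = 2) at 7 h. No dex library overlapped any EtOH library, and at each time the dex replicates were farther apart than the EtOH replicates. The effect was a 1.96-fold increase at 1 h (log2 fold change 0.97, SE 0.12, edgeR adjusted p = 4.44e-05). It was 2.70-fold at 3 h (1.43, SE 0.10, edgeR adjusted p = 1.66e-12) and 3.28-fold at 11 h (1.71, SE 0.17, edgeR adjusted p = 1.87e-05), with values between these at 5, 7 and 9 h. DUSP1 was called at all 6 time points, as were 0.558% of all features.

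DUSP4 (ENSG00000120875.8, chromosome 8 of GRCh38 from 29333064 to 29350668, minus strand), a close relative of DUSP1 that also acts in the nucleus, went the other way. With EtOH it lay at 138 and 155 normalized CPM at 1 h, 163 and 155 at 3 h, 153 and 166 at 5 h, 151 and 157 at 7 h, 156 and 155 at 9 h, and 144 and 141 at 11 h. With dex the libraries read 126 and 122 at 1 h, 50.3 and 50.6 at 3 h, 74.7 and 74.6 at 5 h, 85.5 and 95.3 at 7 h, 81.4 and 80.1 at 9 h, and 66.6 and 66.9 at 11 h. The dex libraries lay below the EtOH libraries at each time, narrowly at 1 h and by far at 3 h. At 1 h the log2 fold change of -0.23 (SE 0.11, edgeR adjusted p = 0.766) was not called. At 3 h DUSP4 was 3.17-fold lower with dex (log2 fold change -1.67, SE 0.11, edgeR adjusted p = 1.19e-13), the largest difference of its course. It then stood at -1.10 at 5 h, -0.77 at 7 h (SE 0.08, edgeR adjusted p = 3.34e-09), -0.93 at 9 h and -1.10 at 11 h (SE 0.14, edgeR adjusted p = 0.000144), all called.

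DUSP5 (ENSG00000138166.5, chromosome 10 from 110497838 to 110511544), whose product anchors and inactivates ERK in the nucleus, was higher with dex only in the later part of the course. At 1, 3 and 5 h the groups overlapped, with dex at 51.4 to 80.3 and EtOH at 52.5 to 80.2 normalized CPM, and log2 fold changes were between -0.07 and 0.11. At 7 h the dex libraries held 88.9 and 78.7 normalized CPM against 44.2 and 55.2 with EtOH, and at 9 h 99.5 and 89.7 against 59.9 and 61.2. The groups no longer overlapped from 7 h on. The log2 fold change was 0.76 at 7 h (SE 0.10, edgeR adjusted p = 5.94e-07) and 0.65 at 9 h (SE 0.12, edgeR adjusted p = 0.00125). Without dex replicate 1 of 9 h the latter was 0.59 and just missed the threshold (edgeR adjusted p = 0.100033). At 11 h, with 91.4 and 85.7 against 68.0 and 63.5, it was 0.43 (SE 0.14, edgeR adjusted p = 0.112) and was not called, although one fit over 24 libraries called it (edgeR adjusted p = 0.0153). DUSP5 was the only tested member whose level in EtOH alone differed between time points (F = 5.20, edgeR adjusted p = 0.0781), where 3.33% of all features did. Its EtOH level was highest at 5 h (66.7 and 80.2) and lowest at 7 h, the time of its largest log2 fold change. That call on the EtOH course was lost when any of 7 of the 12 EtOH libraries was left out, with edgeR adjusted p between 0.108 and 0.366.

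DUSP16 (ENSG00000111266.8, chromosome 12 from 12474210 to 12562383, minus strand), a phosphatase of JNK and p38, was higher with dex from 5 to 9 h. At 1 and 3 h the groups overlapped, with log2 fold changes of -0.06 and 0.20 that were not called. At 5 h the dex libraries held 61.9 and 58.9 normalized CPM against 40.5 and 36.1 with EtOH, which is a log2 fold change of 0.66 (SE 0.12, edgeR adjusted p = 3.23e-05). At 7 h they held 49.2 and 52.7 against 31.0 and 32.6 (0.68, SE 0.10, edgeR adjusted p = 4.94e-06). The highest dex level was at 5 h, 2 h before DUSP5 first separated. At 9 h, with 47.8 and 52.5 against 41.6 and 31.5, the log2 fold change of 0.47 was called (SE 0.15, edgeR adjusted p = 0.0474). This call was lost with DESeq2 (adjusted p = 0.127), with the most counted transcript alone (edgeR adjusted p = 0.188), and without either dex library or EtOH replicate 2 of that time (edgeR adjusted p between 0.117 and 0.408). At 11 h the value was 0.28 (edgeR adjusted p = 0.406).

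**Figure D3:**
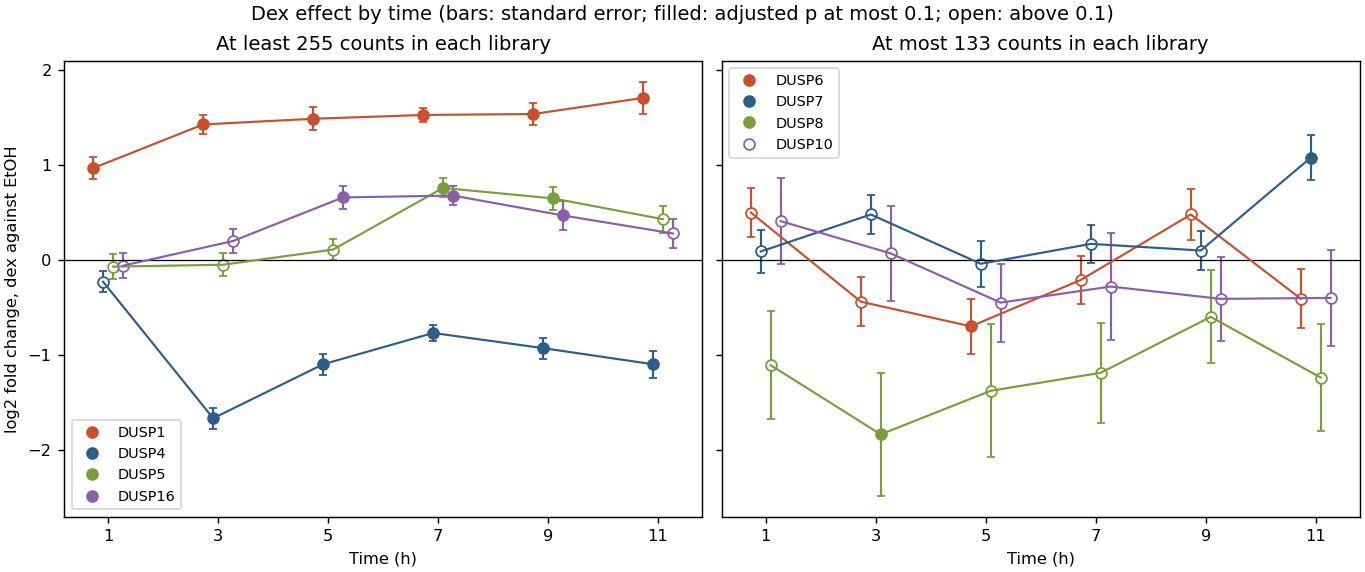
Log2 fold change of dex against EtOH (y axis) by time in hours, with bars of 1 standard error, filled points where the adjusted p was at most 0.1 and open points elsewhere. The left panel holds the 4 genes with at least 255 counts in every library and the right panel the 4 genes with at most 133, whose bars are longer.

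DUSP6 and DUSP7, the cytoplasmic ERK phosphatases among the named genes of the family, were each called at a single time point. DUSP9 was not among these named genes and was tested with the further dual-specificity phosphatases described below. It was called at no time, with log2 fold changes from -0.41 at 9 h to 0.59 at 11 h. DUSP6 (chromosome 12 from 89347232 to 89353271, minus strand), which is widely read as a gauge of ERK output, held 25 to 71 counts per library. At 5 h its dex libraries held 3.06 and 2.80 normalized CPM against 3.80 and 5.58 with EtOH, giving a log2 fold change of -0.70 (SE 0.29, edgeR adjusted p = 0.0874). That call was lost with DESeq2 (adjusted p = 0.437), in one fit over 24 libraries (edgeR adjusted p = 0.117), and without either dex library or EtOH replicate 2 (edgeR adjusted p between 0.137 and 0.624). At the other times its log2 fold change ranged from -0.44 to 0.50 with changing sign, and none was called. DUSP7 (chromosome 3 from 52048919 to 52056550, minus strand) held 42 to 133 counts. At 11 h its dex libraries held 9.39 and 12 normalized CPM against 5.29 and 4.82 with EtOH, giving a log2 fold change of 1.08 (SE 0.24, edgeR adjusted p = 0.0124). Without EtOH replicate 2 of that time its edgeR adjusted p was 0.174. The groups also stood apart at 3 h, with 7.55 and 11.0 against 6.53 and 6.72, but the value of 0.48 was not called (SE 0.21, edgeR adjusted p = 0.156). At the remaining 4 times the groups of DUSP7 overlapped.

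DUSP8 and DUSP10, 2 further phosphatases of JNK and p38, had at most 22 counts in any library. DUSP8 (chromosome 11 from 1554044 to 1571920, minus strand) held 2 to 9 counts in the dex libraries and 6 to 22 in the EtOH libraries. At 5 of 6 time points both dex libraries lay below both EtOH libraries, the exception being 5 h, where EtOH gave 2.26 and 0.50 normalized CPM and dex 0.218 and 0.784. At 3 h, with 0.207 and 0.36 against 1.33 and 0.829, the log2 fold change was -1.84 (SE 0.65, edgeR adjusted p = 0.0708), and this was its one call. It was lost in one fit over 24 libraries (edgeR adjusted p = 0.126) and without replicate 1 of either 3 h group (edgeR adjusted p of 0.318 and 0.416), and DESeq2 gave it no adjusted p at that time (log2 fold change -1.92). As 2 and 4 counts per dex library are too few for a stable fold, the summed counts are given too. At 3 h they were 6 with dex and 23 with EtOH, a ratio per count sequenced of 0.269 (95% exact interval 0.0897 to 0.681), and over all times they were 61 and 153, a ratio of 0.422 (0.309 to 0.572). These intervals cover counting error only and not the spread between libraries, such as 22 and 6 counts in the EtOH libraries of 5 h. No dex library reached the 10 counts on which the filter was built, so DUSP8 entered the test through its EtOH libraries. Its ratios are therefore descriptions and no test of a fall. DUSP10 (chromosome 1 from 221701424 to 221742176, minus strand) was called at no time, with log2 fold changes from -0.45 to 0.41, and its summed counts were 133 with dex and 166 with EtOH, a ratio of 0.849 (95% exact interval 0.671 to 1.07).

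The promoters of the members with the highest and the lowest mean log2 fold change, DUSP1 and DUSP8, are shown together with that of DUSP16, which rose later than DUSP1. They are the 250 bases before the gene start in RefSeq on GRCh38.p14, on the minus strand, at chr5:172771196-172771445, chr11:1572272-1572521 and chr12:12562864-12563113. Capitals mark a full cAMP response element (CRE, TGACGTCA) or an E-box (CACGTG).
DUSP1: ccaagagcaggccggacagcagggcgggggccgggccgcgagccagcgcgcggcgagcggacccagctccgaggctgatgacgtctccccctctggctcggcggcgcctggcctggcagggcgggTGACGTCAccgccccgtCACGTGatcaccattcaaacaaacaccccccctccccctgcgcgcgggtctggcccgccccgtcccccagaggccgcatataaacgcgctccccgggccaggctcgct
DUSP8: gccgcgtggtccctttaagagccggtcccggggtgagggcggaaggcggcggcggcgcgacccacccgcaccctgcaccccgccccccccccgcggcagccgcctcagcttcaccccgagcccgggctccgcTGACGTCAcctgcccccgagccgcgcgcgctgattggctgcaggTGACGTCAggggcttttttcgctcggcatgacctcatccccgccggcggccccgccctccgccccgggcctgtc
DUSP16: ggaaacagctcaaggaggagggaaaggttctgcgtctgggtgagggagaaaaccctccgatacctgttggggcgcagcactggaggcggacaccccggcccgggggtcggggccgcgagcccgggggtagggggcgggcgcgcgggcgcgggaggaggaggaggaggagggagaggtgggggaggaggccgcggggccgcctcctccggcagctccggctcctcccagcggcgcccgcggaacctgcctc
DUSP1, which rose, held 1 CRE starting 125 bases before the gene start and 1 E-box starting 108 before it. DUSP8, which had the lowest mean, held 2 CREs, starting 118 and 74 bases before the start. Of all 35116 RefSeq promoters searched on both strands over the same length, 1.65% held a CRE and 6.34% an E-box. A match was thus found both in DUSP1 and in DUSP8, whose lower level with dex is a description only. RefSeq promoters were matched for 7 of the 9 members (8 windows, DUSP4 and DUSP5 without one), and DUSP2 was the only other with a match, an E-box starting 113 bases before the start. None of the 8 windows held the AP-1 letters TGANTCA (6.57% of all promoters), the half-site AGAACA of GR (12.4%) or its full palindromic site (0.00285%). A match is a description of letters, and its absence says only that they are not in this window.

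Whether the effect of dex differed between time points was tested in one fit over 24 libraries with 5 interaction terms. It did for DUSP4 (F = 26.0, edgeR adjusted p = 2.76e-07), DUSP5 (F = 8.56, edgeR adjusted p = 0.00166) and DUSP16 (F = 4.99, edgeR adjusted p = 0.0286), so 3 of 8 members against 13.8% of all features. The call on DUSP16 was lost without replicate 2 of the EtOH group at 1 h (edgeR adjusted p = 0.113). DUSP1 did not pass over all times (F = 2.94, edgeR adjusted p = 0.176), but its log2 effect was larger at 11 h than at 1 h by 0.75 (SE 0.21, edgeR adjusted p = 0.0345). In that contrast of 11 h with 1 h, 7.6% of all features were called (4.6% higher and 3.01% lower). It was 0.50 for DUSP5 (SE 0.17, edgeR adjusted p = 0.0929), 1.00 for DUSP7 (SE 0.31, edgeR adjusted p = 0.0619) and -0.86 for DUSP4 (SE 0.13, edgeR adjusted p = 4.01e-05). Between 5 h and 1 h, where 12.3% of all features were called (5.95% higher and 6.37% lower), the effect differed for DUSP4 (-0.86, edgeR adjusted p = 2.48e-05), DUSP6 (-1.19, SE 0.39, edgeR adjusted p = 0.0532) and DUSP16 (0.73, edgeR adjusted p = 0.00788).

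Averaged over the 6 time points in the same fit, 5 of the 7 members other than DUSP8 were called, against 34.0% of all features (16.4% higher and 17.6% lower). The mean log2 effect was 1.45 for DUSP1 (SE 0.06), 0.37 for DUSP16 (SE 0.05), 0.31 for DUSP7 (SE 0.09) and 0.30 for DUSP5 (SE 0.05). It was -0.97 for DUSP4 (SE 0.04). DUSP6 (-0.13, SE 0.11) and DUSP10 (-0.18, SE 0.21) were not called. DUSP8 had a mean of -1.23 (SE 0.26) from 214 counts in all, given as a description because it entered through its EtOH libraries.

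As a sum over its 9 genes per transcript length, the family was higher with dex and consisted to a larger part of DUSP1. The sum lay between 155 and 194 RPKM (median 181) in the 12 EtOH libraries and between 251 and 438 (median 342) in the 12 dex libraries, with no overlap. DUSP1 made up 55.4 to 62.1% of it with EtOH (median 58.5%) and 74.5 to 86.6% with dex (median 79.2%). The share of DUSP4 went from 16.1 to 20.5% (median 18.1%) down to 2.63 to 9.64% (median 4.75%). DUSP1 was thus 2.70 to 3.84 times as high as DUSP4 with EtOH and 7.73 to 32.9 times with dex, both extremes of the dex range being in the libraries of 1 and 3 h. DUSP5, below DUSP4 in every EtOH library, was above it in all 10 dex libraries from 3 h on. Its own share had a median of 13.8% with EtOH and 8.47% with dex, while its level per length had medians of 24.1 and 30.6. These shares are descriptions, and they depend on the transcript lengths of the annotation.

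**Figure D4:**
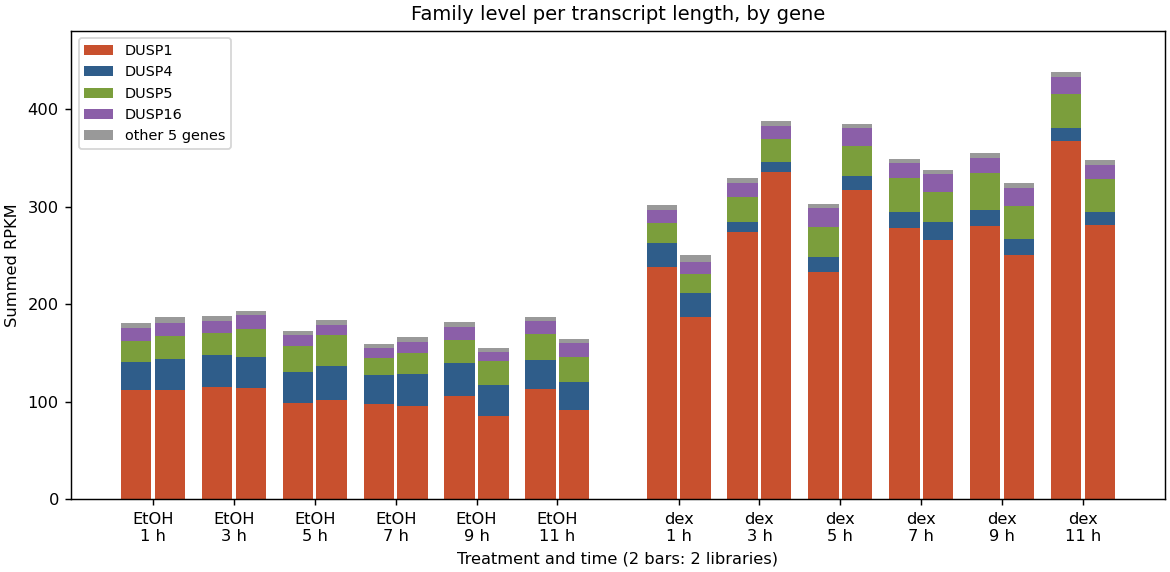
Stacked bars of the level of each gene in RPKM, 1 bar for each of 24 libraries, ordered by treatment and time. All 12 dex bars (251 to 438) were taller than all 12 EtOH bars (155 to 194), and DUSP1 made up most of each.

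Counts of single transcripts were compared where a gene had several. DUSP1, DUSP2, DUSP5 and DUSP10 had 1 transcript row each. DUSP4 had 2, of which ENST00000240100.2 carried 84.6% of its counts and ENST00000240101.2 the remaining 15.4%. Both fell together, by 1.70 and 1.54 on the log2 scale at 3 h, and both were called at all times from 3 h on. Of the 56380 tested transcripts, 7.08% were called at 3 h, 14.7% at 5 h, 16.2% at 7 h, 10.4% at 9 h and 5.05% at 11 h. The minor transcript was also called at 1 h (log2 fold change -0.67, SE 0.16, edgeR adjusted p = 0.0894), where 0.415% of transcripts were. The 2 longest transcripts of DUSP16 carried 78.1% and 18.1% of its counts, and the larger was called at 5 and 7 h only, the smaller at 3, 7 and 9 h. At 5 h the log2 fold change of the smaller was 0.40 (edgeR adjusted p = 0.213) against 0.69 of the larger (edgeR adjusted p = 9.11e-05), and their difference was not tested. The other 2 transcripts, with 1.89% and 1.84% of the counts, had larger values on few counts. ENST00000539940.1 was called at 5 h (3.35, SE 0.85, edgeR adjusted p = 0.00401) and 9 h (2.03, SE 0.61, edgeR adjusted p = 0.0431), and ENST00000541207.1 at 9 h (1.69, SE 0.54, edgeR adjusted p = 0.0565). For DUSP7, ENST00000495880.1 carried 85.2% and was the transcript called at 11 h (log2 fold change 0.95, SE 0.25, edgeR adjusted p = 0.039). In DUSP6, the transcript with 52.1% of the counts carried the call at 5 h (-0.97, edgeR adjusted p = 0.0773), while ENST00000308385.6, with 34.0%, was higher with dex at 9 h (1.31, edgeR adjusted p = 0.0466). The 2 transcripts of DUSP8 were below the filter. How a read that matched several transcripts was placed is not given in the sources used here, so transcripts of one gene can share reads. Among the members, release 29 lists 3 processed pseudogenes of DUSP8 and 2 of DUSP5, none with a row in the table, so reads from them could not be told apart from those of their parent genes.

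Other genes of MAP kinase signalling were described from lists written with earlier results of these data known. Among 11 tested further dual-specificity phosphatases, most of which do not act on classical MAP kinases, none was called at 1 or 11 h. At these times 0.864% and 8.58% of all features were called. At 3 h 1 was higher and 1 lower, where 7.66% and 5.29% of all features were, and at 9 h 1 was higher (9.79%). At both 5 and 7 h 3 were higher, where 11.2% and 13.4% of all features were higher. DUSP22 had the highest mean of those called at 2 or more times, with log2 fold changes of 0.48, 0.41 and 0.39 at 3, 5 and 7 h, and DUSP23 the lowest, with 0.68 and 0.46 at 5 and 7 h. Of 4 tested phosphatases of other classes that act on MAP kinases, PPP2CB, a catalytic subunit of protein phosphatase 2A, was higher at all times from 3 h on, with log2 fold changes of 0.78 to 1.06. PPM1D, a phosphatase induced by p53, was lower at 5 and 7 h (-0.46 and -0.33).

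Upstream of the MAP kinases, none of the 11 genes of the RAS and RAF step was called lower, and 3, 3, 4, 2 and 1 were higher at 3, 5, 7, 9 and 11 h, where 7.66%, 11.2%, 13.4%, 9.79% and 5.31% of all features were higher. SHC1, an adaptor that couples receptors to RAS, had the highest mean of them (log2 fold change 0.73 to 1.24 from 3 h on), and SOS2, an exchange factor for RAS, was higher at 5 and 9 h (0.31 and 0.64). Of 14 MAP3K genes, 2, 3, 2, 1 and 1 were higher and 3, 4, 3, 3 and 2 lower at these 5 times, where 5.29%, 11.9%, 12.4%, 8.42% and 3.27% of all features were lower. MAP3K6 was higher from 3 h on (0.96 to 1.29), and MAP3K8, a kinase upstream of ERK in inflammatory signalling, was lower at all 6 times (-0.60 to -1.58, with -0.86 at 1 h and an edgeR adjusted p of 0.00524 there). Of 7 MAP2K genes, none was called at 1 h. At 3, 5, 7, 9 and 11 h, 0, 2, 3, 0 and 0 of them were higher and 1, 1, 1, 2 and 1 lower, beside the shares just given. MAP2K6, an activator of p38, was lower from 3 h on (-0.38 to -0.74), and MAP2K2, an activator of ERK, was higher at 5 and 7 h (0.64 and 0.83). MAP2K3 was higher at 5 and 7 h (0.36 and 0.53) and lower at 9 h (-0.48). Of 10 tested MAP kinases, none was called at 1, 5 or 11 h. At 3 h 2 were higher and 1 lower, at 7 h 2 were higher and at 9 h 3, with the shares of all features as given for these times. Of those called at 2 times, MAPK11 and MAPK14, which encode p38 kinases, were 0.72 at 3 h and 0.34 at 7 h, and MAPK7, which encodes ERK5, was 0.44 at 3 h and 0.45 at 9 h. MAPK12, another p38 gene, was called at no time.

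Downstream, 8 genes whose transcripts are commonly read as output of ERK were tested. At both 3 and 5 h, 4 of them were lower and 1 higher, where 5.29% and 11.9% of all features were lower, with list medians of -0.37 and -0.46 against 0.00 over all features. PHLDA1, a negative regulator of growth signalling, had log2 fold changes of -1.23 at 3 h and -0.69 to -1.03 later, all called. CCND1, which encodes cyclin D1, was the one higher at 3 and 5 h and stayed higher from 3 h on (0.34 to 0.64). At 1 h, 1 of the 8 was higher and 1 lower, where 0.523% and 0.342% of all features were. At 7, 9 and 11 h, 1 was higher each time, and 3, 2 and 2 were lower, with the shares of all features given below. The list medians were -0.08 at 1 h, -0.19 at 7 h, -0.10 at 9 h and -0.12 at 11 h. Among 10 immediate-early genes, 4 were lower at 1 h (FOSL1, IER2, IER3 and JUN), where 0.342% of all features were lower. The list median was then -0.61, against 0.00 over all features. At 3 h, 5 were lower and 2 higher, at each of 5, 7 and 9 h 3 were lower and 3 higher, and at 11 h 2 were lower and 2 higher. Of all features, 5.29%, 11.9%, 12.4%, 8.42% and 3.27% were lower at 3, 5, 7, 9 and 11 h. The shares that were higher were 7.66%, 11.2%, 13.4%, 9.79% and 5.31%. IER3, which modulates cell survival, was lower at all 6 times (-1.04 to -1.80), while FOS, a subunit of AP-1, was higher from 3 h on (0.68 to 1.19). Of 10 tested kinases activated by MAP kinases, none was called at 1 h, where 0.864% of all features were. At 3, 5, 7, 9 and 11 h, 1, 2, 4, 3 and 1 of them were higher and 1, 2, 2, 0 and 1 lower. MKNK2 was higher from 5 to 9 h (1.27, 1.07 and 0.43), and RPS6KA5 was lower at 5 and 7 h (-0.81 and -0.90). Most lists are described by counts beside the share of all features, with medians only for the ERK output and immediate-early genes. The part of any list in the change of a phosphatase was not tested.

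**Figure D5:**
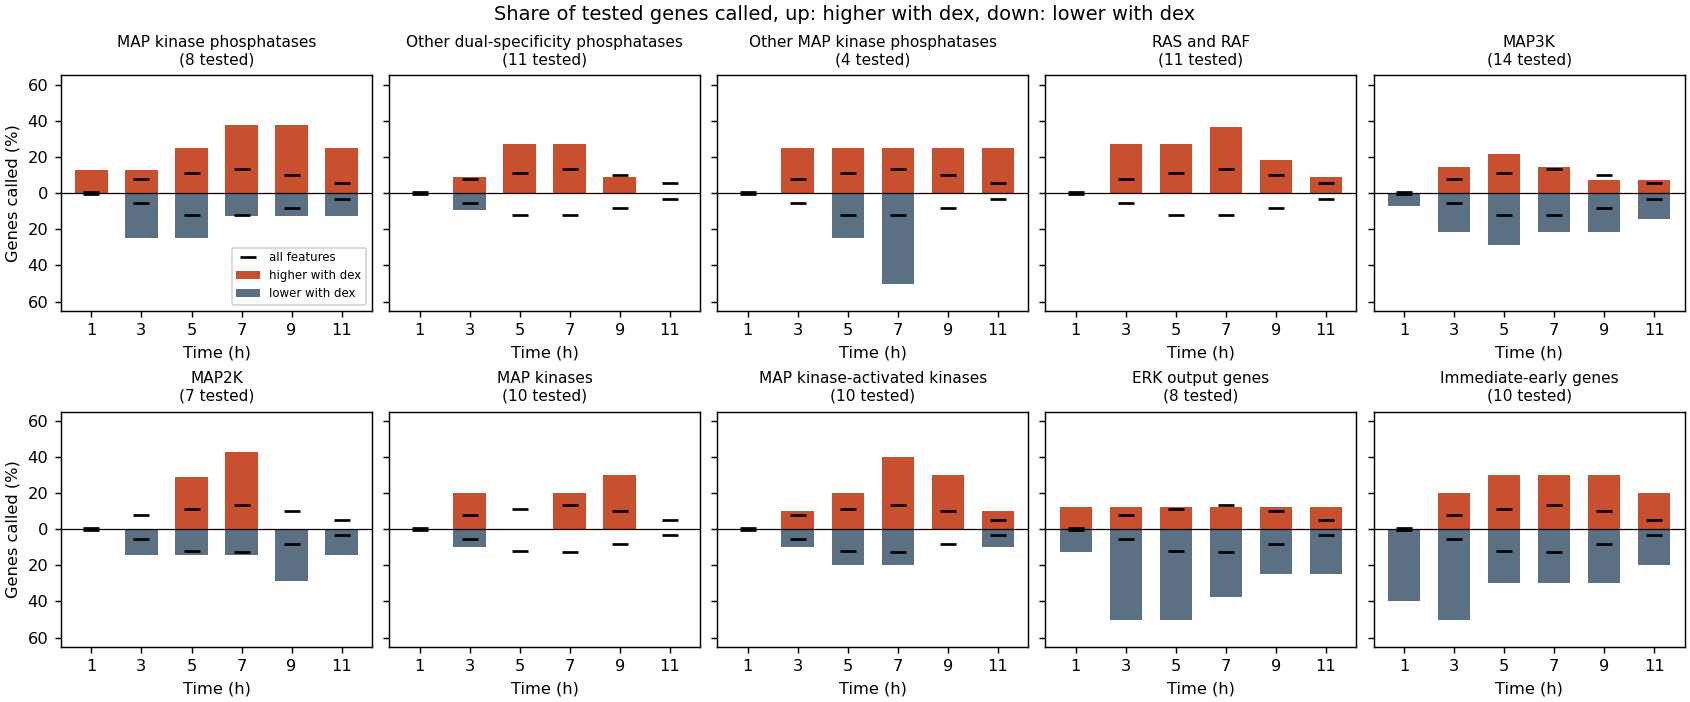
Share of tested genes called higher (bars above 0) and lower (bars below 0) with dex in percent, by time in hours, for the phosphatase family and 9 lists of MAP kinase signalling, with dashes at the share of all 19897 features. Each list holds only 4 to 14 tested genes, so that 1 gene moves a bar by a large step.

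Among all genes tested at 6 time points, the 5 whose log2 fold changes lay closest to those of DUSP1 were SLC22A5, CPEB4, B3GNT5, ITPKC and STBD1. Likeness was measured as the root mean square difference over the 6 values, which was 0.175 for SLC22A5, a carnitine transporter, and 0.186 for CPEB4, which binds cytoplasmic polyadenylation elements. All 5 were called at 6 of 6 time points. SLC22A5, the closest, had log2 fold changes of 0.72 at 1 h, 1.42 at 3 h and 1.61 at 11 h. For DUSP8, at the other end of the range, the 5 closest were SOX2, INHBE, ENC1, PLK2 and NUAK1, with differences of 0.246 to 0.325. DUSP8 entered the test through its EtOH libraries, and its log2 fold changes had SEs of 0.49 to 0.70, larger than these differences. SOX2 and INHBE held at most 20 and 13 counts in a library, as low as DUSP8 itself, while ENC1, PLK2 and NUAK1 were well counted and called at all 6 times. These comparisons share their control libraries with those of DUSP1 and DUSP8 and are descriptions.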

How the data were processed

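RNA-seq was measured in 24 libraries. The authors mapped 50-base single-end reads to GENCODE transcripts with Bowtie and deposited the whole-number count of each of 119207 transcripts per library from samtools, with no normalization; the submitters' notes name hg19. Transcripts were joined to genes through GENCODE 29 (GRCh38) without version, which placed 94.1% of the counts, and summed per gene. Coordinates and transcript lengths are from that release, also where it holds another version of the counted transcript. The tests used edgeR 4.0.16 with TMM scaling (filterByExpr over 12 groups, robust quasi-likelihood F-test, Benjamini-Hochberg adjustment, threshold 0.1). Standard errors were taken as the log2 fold change over the root of its F. Normalized CPM are scaled to the TMM library size. RPKM are scaled to the total counts of each library, without TMM, and to transcript length. The scripts were tested on simulated data. Alternatives were DESeq2 1.42.0, its size factors, other filters, one fit over 24 libraries, the most counted transcript, the replicate number as a block, and leaving out each library. The members and lists were chosen with earlier results of these data known. From each list, the genes named are those with the highest and lowest mean log2 fold change among genes called at 2 or more times. The 5 most like DUSP1 and DUSP8 are named too. The 4 immediate-early genes lower at 1 h, DUSP9, MAP2K3, MAPK7 and MAPK12 were named after their values were seen. Single genes of some lists are not reported here.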

Additional observations from a re-analysis of the deposited data

Results flagged for a closer look

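The size of the dex effect differed between time points for several of the phosphatase genes, by the quasi-likelihood F-test of edgeR over 24 libraries with Benjamini-Hochberg adjusted p of at most 0.1. Over all 6 time points this held for DUSP4 (F = 26.0), DUSP5 (F = 8.56) and DUSP16 (F = 4.99). Between 5 h and 1 h the log2 effect differed by -0.86 for DUSP4, by -1.19 for DUSP6 and by 0.73 for DUSP16. Between 11 h and 1 h it differed by 0.75 for DUSP1, by -0.86 for DUSP4, by 0.50 for DUSP5 and by 1.00 for DUSP7. DUSP6 and DUSP7 did not pass the test over all 6 time points, and their counts were at most 133 per library. Neither the contrasts of 5 h and 11 h with 1 h nor the mean effect over 6 time points was rerun under the alternatives.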

How the results depend on the processing

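No log2 fold change that was called changed direction under any alternative run, and of 847 values of single members 794 kept their side of the threshold, 23 lost a call and 30 gained one. The sign of a value that was not called changed in 17 cases. The tally of kept, lost and gained calls leaves out values without an adjusted p. One of these was DUSP8 at 3 h with DESeq2, where the main test had called it. DUSP8 also had no value with at least 10 counts required in every library, or from the most counted transcript alone. The calls on DUSP1 at every time and on DUSP4 from 3 h on held under every alternative that was run. With 2 libraries per group, counts over all features moved most. DESeq2 called 1324 features at 3 h, 2660 at 5 h, 2727 at 7 h and 2032 at 9 h. No filter gave 307 at 1 h, and one fit over 24 libraries gave 2971 at 11 h. Deviations of dex and EtOH libraries with the same replicate number had correlations between -0.0588 and 0.135, and whether these numbers pair the samples was not tested. The replicate block gave 634 features at 1 h and 5224 at 9 h, against 172 and 3624 without it. With the block, the edgeR adjusted p of DUSP16 at 9 h was 0.00137. It called 5 members at 5 h (DUSP8 added, edgeR adjusted p = 0.0834) and 4 at 11 h (DUSP5 added, edgeR adjusted p = 0.072). DUSP7 (edgeR adjusted p = 0.0987) was added to the members whose effect differed between times. Leaving out 1 library gave 94 to 762 features at 1 h, 1542 to 3010 at 3 h, 3530 to 3973 at 5 h, 2660 to 5898 at 7 h, 1298 to 6105 at 9 h and 856 to 5870 at 11 h. Members called were then 1 to 2 at 1 h, 2 to 3 at 3 h, 3 to 4 at 5 h, 4 to 5 at 7 h, and 2 to 5 at both 9 and 11 h. The dex effect then differed between times for 1885 to 4595 features and 2 to 5 members, and the EtOH level for 23 to 2249 features and 0 to 2 members. Where a call was gained or lost, the cause was not tested. For DUSP8, DUSP10 and DUSP2, the low counts limit what could be detected.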
